A study of Mus musculus with 3 samples.

Results

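The genes of sterol synthesis, of its control by SREBP2 and of sterol transport were described as a set of 27, chosen by name from among 46951 loci in the deposited gene table. All 27 were found. All 27 were also among the 14032 loci that averaged 1 FPKM or more over the libraries, where FPKM is a fragment level scaled to transcript length and library size. Inguinal nodes had been taken from male mice of the C57BL/6j strain after the contact sensitizer DNFB was put on the abdominal skin. The 20(OH)D3 and 25(OH)D3 groups then received these hydroxylated forms of vitamin D3 into the peritoneum at 4 µg/kg each day, and the vehicle group received ethanol. The compounds carry their hydroxyl group on different side-chain carbons. The sample labels state 4 daily injections, starting 3 days after DNFB, and collection 24 hours after the last, whereas the series text states a week. Each group had 1 library. Neither the age of the mice nor the number of mice behind a library is given in the labels.

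Cells build cholesterol from acetyl-CoA through mevalonate and isoprenoid units to squalene, which is closed to lanosterol and trimmed to cholesterol. The transcription factor SREBP2, encoded by Srebf2, drives most genes of this route: when membrane sterol is low, the escort protein SCAP carries it to the Golgi for cleavage, and when sterol is high the INSIG proteins hold SCAP in the endoplasmic reticulum. Dividing lymphocytes use the route to build membrane, and the sterol that Dhcr7 reduces to cholesterol is also the precursor of vitamin D3 in skin.

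With 1 library per group there is no replicate error and no test could be run, so every ratio compares libraries. Ratios are of the authors' normalized counts, and the 95% interval in parentheses after a ratio (exact Clopper-Pearson) covers counting error only. Reads recovered from those counts totalled 7522550 with 20(OH)D3, 7991748 with 25(OH)D3 and 8226431 with vehicle. The T cell and B cell markers of a lymph node were abundant, each list summing to between 1013 and 2340 FPKM in every library. The sterol genes took 0.159% of reads with 20(OH)D3, 0.162% with 25(OH)D3 and 0.163% with vehicle, a nearly constant share. In a bulk sample, fewer cells of a type and less RNA per cell cannot be told apart.

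Promoter sequence, placed by RefSeq's table for GRCm38.p6, was searched for 22 of the 27 genes. Fdps, Fdft1, Sqle, Stard4 and Npc1 were left out of the search. The motif shares of the set therefore do not cover these genes, and whether they hold the motifs was not tested. The 250 bases before the RefSeq start, which differs from the GENCODE start behind the gene positions printed for Insig1 and Srebf2, are shown for 4 genes: Insig1, Hmgcs1 and Acat2, which had count ratios above 1 with both compounds, and Srebf2, the gene of the factor itself, which had ratios below 1. Capitals mark the sterol regulatory element TCACNCCAC, the CCAAT box bound by NF-Y and the GC box GGGCGG bound by Sp1, each searched on both strands.
Insig1, chr5:28071162-28071411, plus strand: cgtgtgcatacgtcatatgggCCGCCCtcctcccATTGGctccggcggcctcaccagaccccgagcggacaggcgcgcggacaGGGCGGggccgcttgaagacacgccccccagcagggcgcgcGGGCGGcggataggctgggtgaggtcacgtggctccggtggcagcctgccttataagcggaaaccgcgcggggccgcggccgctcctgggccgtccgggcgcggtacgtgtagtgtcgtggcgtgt
Hmgcs1, chr13:119690101-119690350, plus strand: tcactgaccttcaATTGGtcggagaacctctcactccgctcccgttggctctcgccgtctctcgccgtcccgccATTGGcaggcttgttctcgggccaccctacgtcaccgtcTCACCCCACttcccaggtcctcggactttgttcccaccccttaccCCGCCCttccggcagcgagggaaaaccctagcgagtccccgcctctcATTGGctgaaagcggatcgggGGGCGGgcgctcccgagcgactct
Acat2, chr17:12960726-12960975, minus strand: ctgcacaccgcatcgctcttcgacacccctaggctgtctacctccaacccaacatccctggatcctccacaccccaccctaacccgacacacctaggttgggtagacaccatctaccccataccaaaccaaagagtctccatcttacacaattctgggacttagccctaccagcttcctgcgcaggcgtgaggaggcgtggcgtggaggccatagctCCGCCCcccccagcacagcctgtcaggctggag
Srebf2, chr15:82147019-82147268, plus strand: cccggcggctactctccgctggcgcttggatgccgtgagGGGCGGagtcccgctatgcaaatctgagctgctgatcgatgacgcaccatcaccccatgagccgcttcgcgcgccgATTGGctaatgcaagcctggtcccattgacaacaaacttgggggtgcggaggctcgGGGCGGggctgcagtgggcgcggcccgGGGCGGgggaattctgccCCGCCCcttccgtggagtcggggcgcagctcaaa
The Hmgcs1 window held 1 sterol regulatory element, from 137 to 129 bases before the start, and 3 CCAAT boxes. Of the 22 genes, Hmgcs1 alone held an exact match to that element in this window, as did 1.25% of 10019 expressed genes. Near matches were not searched. CCAAT was in the window of 20 of the 22 genes (90.9%), against 40.1% of expressed genes, and GGGCGG in 19 (86.4%), against 62.1%. These are letter matches in a short window, not bound sites.

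By normalized counts, Insig1 stood furthest from vehicle of the 27 genes. It encodes a membrane protein that retains SCAP, and as an SREBP target it acts as a feedback brake. Insig1 (GRCm38 chromosome 5, 28071363 to 28078662, plus strand) stood at 28.9 FPKM with 20(OH)D3, 28.0 FPKM with 25(OH)D3 and 14.0 FPKM with vehicle. It had 615 reads with 20(OH)D3, 624 with 25(OH)D3 and 333 with vehicle. Both treated libraries were thus high and the vehicle library low. The normalized count ratios to vehicle were 2.07 (1.81 to 2.37) with 20(OH)D3 and 2.01 (1.76 to 2.30) with 25(OH)D3, and both rest on the same vehicle library. Insig1 was the 1 gene of the set at least 2-fold higher, where 6.04% of all loci were 2-fold higher with 20(OH)D3 and 2.34% with 25(OH)D3.

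The other genes of sterol control were closer to vehicle. Insig2, the second retention protein, stood at 12.8 FPKM with 20(OH)D3, 13.2 FPKM with 25(OH)D3 and 9.41 FPKM with vehicle. Its count ratios were 1.2 (0.981 to 1.47) with 20(OH)D3 and 1.22 (0.994 to 1.49) with 25(OH)D3, so both intervals held 1. Srebf2 (GRCm38 chromosome 15, 82147181 to 82205379, plus strand) stood at 36 FPKM with 20(OH)D3, 36.2 FPKM with 25(OH)D3 and 42.0 FPKM with vehicle. Srebf2 was therefore lower with both compounds, at ratios to vehicle of 0.858 (0.800 to 0.919) with 20(OH)D3 and 0.861 (0.804 to 0.922) with 25(OH)D3. Scap, the escort, had 495 reads with 20(OH)D3, 521 with 25(OH)D3 and 665 with vehicle. Its count ratios were 0.833 (0.740 to 0.937) with 20(OH)D3 and 0.841 (0.748 to 0.944) with 25(OH)D3, also below 1. Its FPKM differed more than its counts, at 14.8 FPKM with 20(OH)D3, 18.9 FPKM with 25(OH)D3 and 29.3 FPKM with vehicle. Within these 4 genes, both retention proteins had ratios above 1, and the factor and its escort had ratios below 1.

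**Figure D1:**
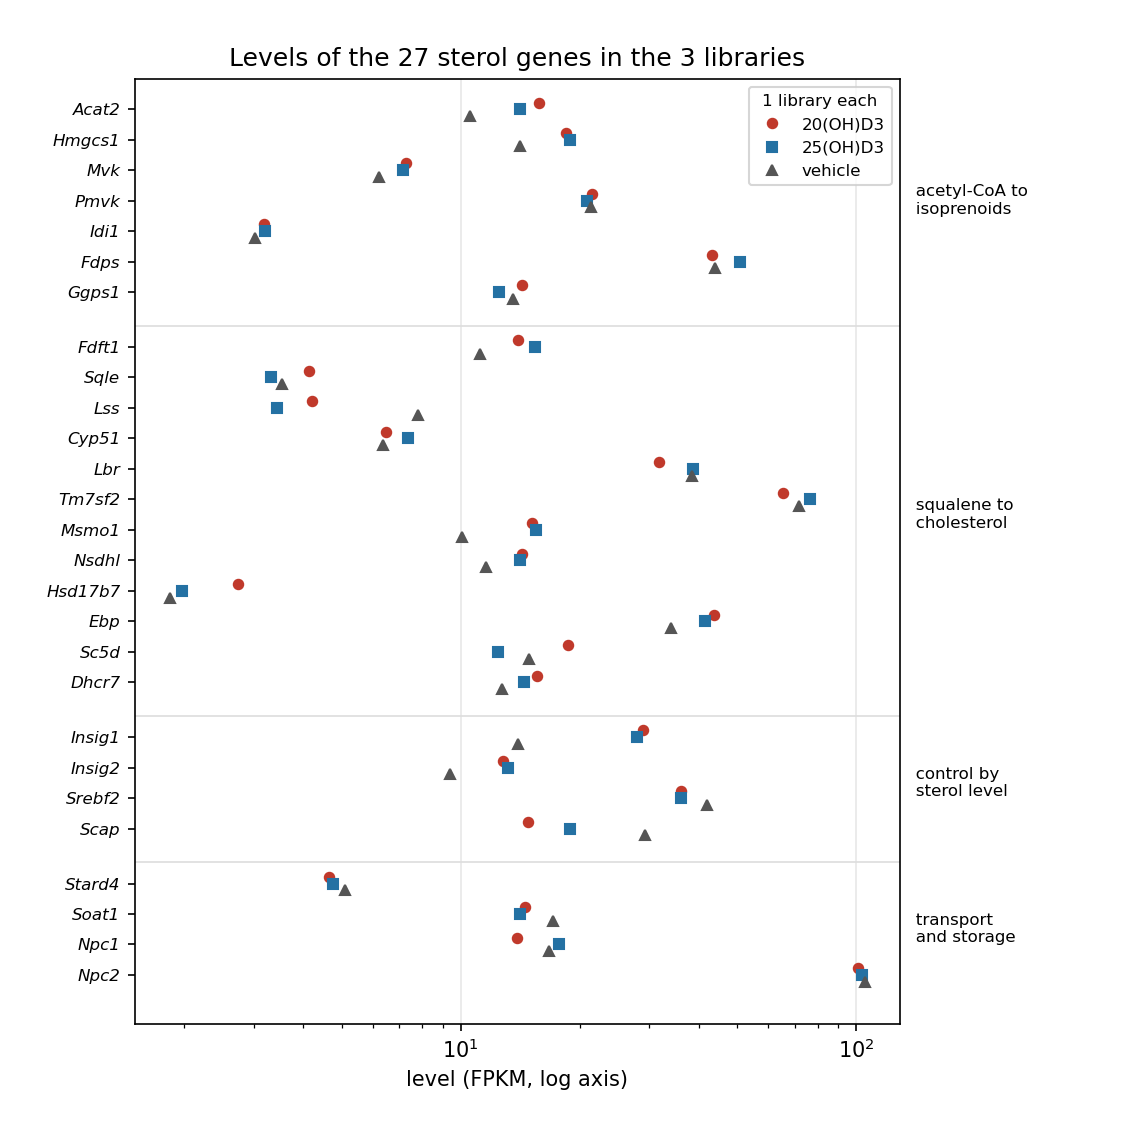
Level of each sterol gene in FPKM on a log axis in the 20(OH)D3, 25(OH)D3 and vehicle libraries, 1 point per library, grouped by step of the pathway. Levels run from Hsd17b7, at 1.84 FPKM with vehicle, to Npc2, at 106 FPKM with vehicle, and the vehicle point of Insig1 lies well left of its treated points.

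The early enzymes make the isoprenoid units. Acat2, a cytosolic thiolase that joins acetyl-CoA units, stood at 15.8 FPKM with 20(OH)D3, 14.2 FPKM with 25(OH)D3 and 10.6 FPKM with vehicle. Its ratios to vehicle were 1.5 (1.25 to 1.81) with 20(OH)D3 and 1.34 (1.11 to 1.62) with 25(OH)D3, the 20(OH)D3 ratio being just short of 1.5-fold before rounding. Acat2 lies beside the near-identical gene Acat3, so counting can split their reads, and the 2 genes summed had ratios of 1.29 (1.13 to 1.47) with 20(OH)D3 and 1.37 (1.21 to 1.56) with 25(OH)D3. Hmgcs1, the HMG-CoA synthase, stood at 18.4 FPKM with 20(OH)D3, 18.9 FPKM with 25(OH)D3 and 14.1 FPKM with vehicle. Its ratios were 1.31 (1.14 to 1.5) with 20(OH)D3 and 1.34 (1.17 to 1.53) with 25(OH)D3. The vehicle library was thus the lowest of the 3 for both of these first enzymes.

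The later enzymes of this arm stayed nearer to 1, apart from the counts of Idi1 with 25(OH)D3. Mvk, the mevalonate kinase, had ratios of 1.15 (0.838 to 1.57) with 20(OH)D3 and 1.2 (0.885 to 1.63) with 25(OH)D3. Pmvk, the next kinase, had 1.01 (0.819 to 1.24) with 20(OH)D3 and 0.950 (0.771 to 1.17) with 25(OH)D3. Ggps1, which makes geranylgeranyl diphosphate, had 1.05 (0.883 to 1.25) with 20(OH)D3 and 0.917 (0.768 to 1.10) with 25(OH)D3. For these 3 enzymes a difference from vehicle was not detectable at this depth. Fdps, which makes farnesyl diphosphate and shares its locus with Rusc1 and Gm43738, had 0.977 (0.863 to 1.11) with 20(OH)D3 and 1.19 (1.06 to 1.33) with 25(OH)D3. Idi1, the isomerase of isopentenyl diphosphate, rested on 54 reads with 20(OH)D3, 35 with 25(OH)D3 and 60 with vehicle. Its count ratio to vehicle with 25(OH)D3 was 0.626 (0.4 to 0.965), yet its FPKM ratio was 1.06, so the direction depends on the scale.

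Part of the chain from squalene to cholesterol was also above vehicle. Fdft1, the squalene synthase, stood at 13.9 FPKM with 20(OH)D3, 15.4 FPKM with 25(OH)D3 and 11.2 FPKM with vehicle. Its ratios were 1.24 (1.05 to 1.47) with 20(OH)D3 and 1.37 (1.17 to 1.61) with 25(OH)D3. Ebp, the sterol isomerase, stood at 43.9 FPKM with 20(OH)D3, 41.5 FPKM with 25(OH)D3 and 34.0 FPKM with vehicle. Its ratios were 1.27 (1.08 to 1.5) with 20(OH)D3 and 1.19 (1.01 to 1.40) with 25(OH)D3, so for Fdft1 and Ebp the intervals of both compounds lay above 1. Msmo1, the methyl sterol oxidase, stood at 15.2 FPKM with 20(OH)D3, 15.6 FPKM with 25(OH)D3 and 10.1 FPKM with vehicle. Its count ratios were 1.34 (1.09 to 1.66) with 20(OH)D3 and 1.24 (1.00 to 1.54) with 25(OH)D3, smaller than its FPKM ratios of 1.51 with 20(OH)D3 and 1.55 with 25(OH)D3. Nsdhl, the dehydrogenase that acts after Msmo1, had ratios of 1.21 (0.998 to 1.46) with 20(OH)D3 and 1.21 (1.01 to 1.47) with 25(OH)D3.

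Sc5d and Dhcr7 act in the last steps. Sc5d, the sterol desaturase, stood at 18.7 FPKM with 20(OH)D3, 12.4 FPKM with 25(OH)D3 and 14.9 FPKM with vehicle. Its ratios to vehicle were 1.32 (1.11 to 1.58) with 20(OH)D3 and 0.906 (0.750 to 1.10) with 25(OH)D3, so only the 20(OH)D3 interval lay above 1. Dhcr7 stood at 15.6 FPKM with 20(OH)D3, 14.4 FPKM with 25(OH)D3 and 12.7 FPKM with vehicle. Its ratios were 1.21 (1.02 to 1.43) with 20(OH)D3 and 1.10 (0.924 to 1.30) with 25(OH)D3. Between the compounds Dhcr7 had 1.10 (0.933 to 1.30), an interval that held 1.

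The remaining enzymes of this arm were closer to vehicle or below it. Sqle, the squalene epoxidase, had 1.14 (0.842 to 1.56) with 20(OH)D3 and 0.913 (0.66 to 1.26) with 25(OH)D3. Cyp51, the lanosterol demethylase, had 1.03 (0.847 to 1.26) with 20(OH)D3 and 1.13 (0.932 to 1.36) with 25(OH)D3. Hsd17b7, a sterol ketone reductase and the lowest gene of the set per transcript length, had 0.876 (0.602 to 1.27) with 20(OH)D3 and 1.10 (0.781 to 1.56) with 25(OH)D3. All of these intervals held 1. Lbr and Tm7sf2 encode the sterol reductases of the C14 double bond, and Lbr also anchors the nuclear lamina. Lbr had ratios of 0.831 (0.759 to 0.910) with 20(OH)D3 and 0.967 (0.887 to 1.05) with 25(OH)D3, lower with 20(OH)D3 by its interval. Tm7sf2, at a locus counted together with Vps51 and Zfpl1, had 0.955 (0.857 to 1.06) with 20(OH)D3 and 1.08 (0.975 to 1.2) with 25(OH)D3.

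Genes of sterol transport and storage were near vehicle or below it. Soat1, which esterifies cholesterol for storage, had count ratios of 0.771 (0.688 to 0.863) with 20(OH)D3 and 1.00 (0.903 to 1.11) with 25(OH)D3. Npc1, which exports cholesterol from lysosomes, had 0.844 (0.752 to 0.948) with 20(OH)D3 and 1.01 (0.909 to 1.13) with 25(OH)D3. By counts, both were lower with 20(OH)D3 by their intervals. The FPKM ratios of Soat1 were 0.852 with 20(OH)D3 and 0.827 with 25(OH)D3, so by FPKM it was lower with both compounds. Npc2, the soluble partner of Npc1, had the highest level of the set per transcript length, at 101 FPKM with 20(OH)D3, 104 FPKM with 25(OH)D3 and 106 FPKM with vehicle. Npc2 had ratios of 0.956 (0.907 to 1.01) with 20(OH)D3 and 0.980 (0.930 to 1.03) with 25(OH)D3. Stard4, a soluble sterol carrier and SREBP2 target, had 0.884 (0.724 to 1.08) with 20(OH)D3 and 0.930 (0.767 to 1.13) with 25(OH)D3. With 20(OH)D3 all 4 genes of this group had ratios below 1, where 47.5% of all loci were above 1. Of these 4 genes, 2 had an interval below 1 with 20(OH)D3, against 21.8% of all loci. With 25(OH)D3 all 4 intervals held 1, where 14.6% of all loci had an interval above 1 and 12.2% below.

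**Figure D2:**
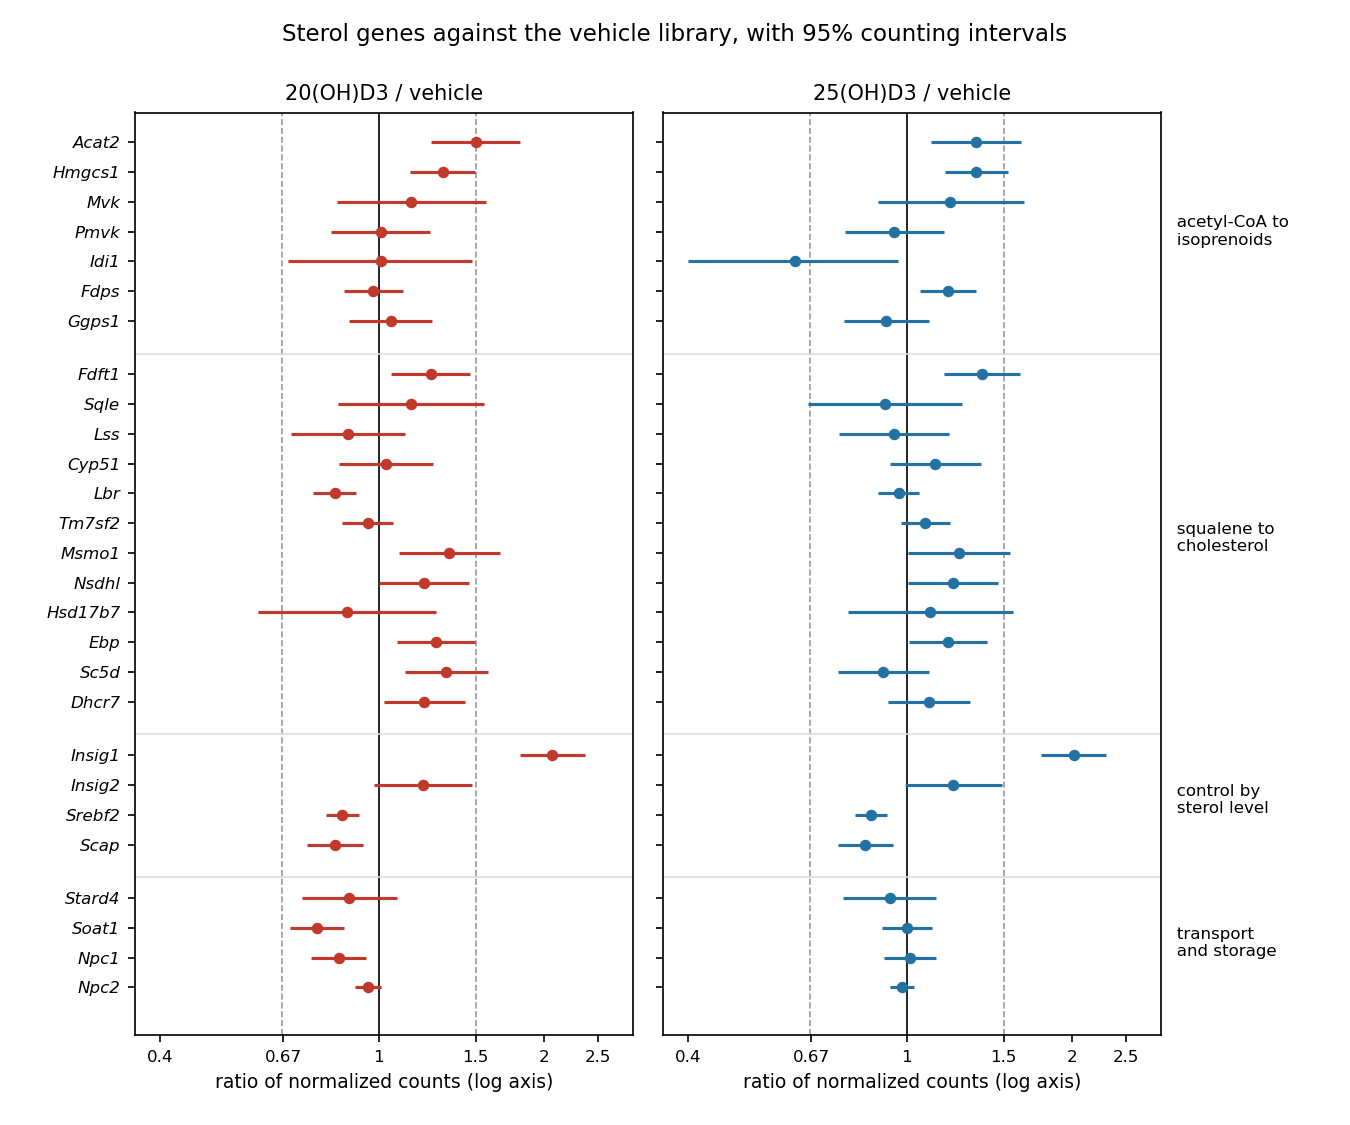
Ratio of normalized counts of each sterol gene to the vehicle library on a log axis, for 20(OH)D3 on the left and 25(OH)D3 on the right, with points for ratios, horizontal bars for 95% counting intervals and dashed lines at 1.5-fold. Insig1 lies at 2.07 with 20(OH)D3 and 2.01 with 25(OH)D3, and most other genes lie within 1.5-fold of vehicle.

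Over the set, 16 of 27 genes had a ratio above 1 with 20(OH)D3, against 47.5% of all 14032 loci, and 16 of 27 with 25(OH)D3, against 52.1%. The median log2 ratio was 0.04 with 20(OH)D3, beside -0.02 over all loci, and 0.11 with 25(OH)D3, beside 0.01 over all loci. At least 1.5-fold apart with 20(OH)D3 stood 1 gene, against 18.4% of all loci: Insig1, among 12.9% of loci that were higher, with 0 genes lower, where 5.47% of loci were lower. With 25(OH)D3 there were 2 genes, against 11.4% of all loci: Insig1, among 6.34% that were higher, and Idi1, among 5.07% that were lower. Apart from Insig1 with both compounds and Idi1 with 25(OH)D3, no gene of the set reached 1.5-fold by counts. These shares include loci with few reads, whereas 23 of the 27 genes, Insig1 among them, had at least 100 reads in every library. Of loci at that depth, 6.8% were 1.5-fold higher and 0.772% lower with 20(OH)D3. With 25(OH)D3 they were 1.95% and 0.375%. In TPM, which rescales FPKM to a common total, the median of the set was -0.09 with 20(OH)D3 and -0.06 with 25(OH)D3, beside medians over all loci of -0.18 and -0.12.

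Intervals that lay wholly on one side of 1 were counted too. With 20(OH)D3, 8 genes had an interval above 1, against 20.2% of all loci, and 5 an interval below 1, against 21.8%. With 25(OH)D3 there were 8 above, against 14.6%, and 3 below, against 12.2%. By step, the 7 early enzymes had median log2 ratios of 0.07 with 20(OH)D3 and 0.25 with 25(OH)D3. The 12 enzymes from squalene onward had 0.23 and 0.14 with the same compounds, and the 4 transport and storage genes -0.21 and -0.01. The transport and storage genes thus had the lowest median of the groups with 20(OH)D3.

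The deposited FPKM and counts differed for a few genes. The FPKM and count ratios were within 1.2-fold of each other for 24 of 27 genes with 20(OH)D3 and for 22 of 27 with 25(OH)D3. Lss, the lanosterol synthase, stood at 4.21 FPKM with 20(OH)D3, 3.44 FPKM with 25(OH)D3 and 7.79 FPKM with vehicle, while its count ratios to vehicle were 0.880 (0.693 to 1.12) with 20(OH)D3 and 0.949 (0.753 to 1.19) with 25(OH)D3. For Lss, 1 FPKM corresponded to 32.1 normalized counts with 20(OH)D3, 42.5 with 25(OH)D3 and 19.7 with vehicle. For Insig1 the same quantity was 22.3 normalized counts with 20(OH)D3, 22.4 with 25(OH)D3 and 22.4 with vehicle, so Insig1 did not have this spread. Hsd17b7 had an FPKM ratio of 1.49 with 20(OH)D3, on the other side of 1 from its count ratio. With 25(OH)D3 the genes on the other side of 1 by FPKM were Idi1, Lbr and Soat1.

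**Figure D3:**
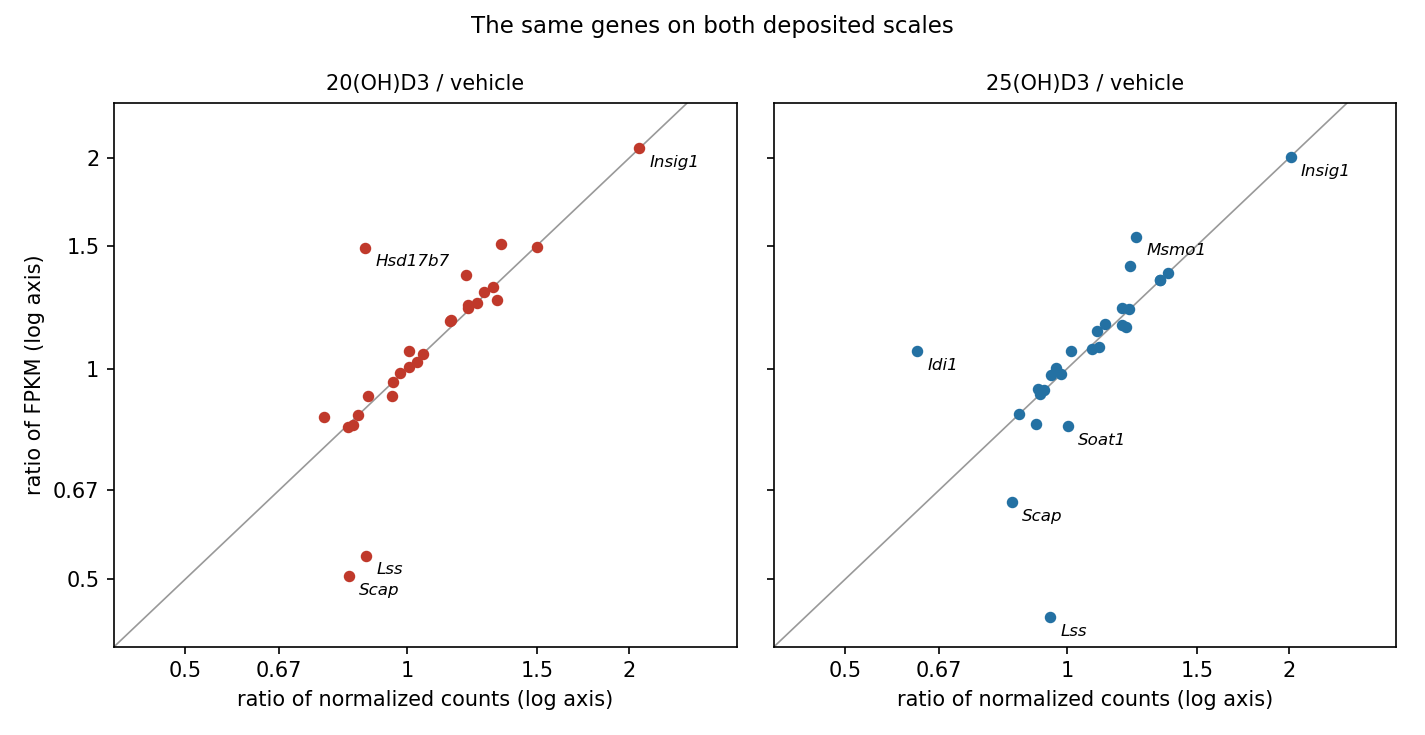
Ratio of FPKM (vertical) against ratio of normalized counts (horizontal), both on log axes, 1 point per sterol gene, for 20(OH)D3 against vehicle on the left and 25(OH)D3 against vehicle on the right; the line marks equality. Insig1 is on the line, at count ratios of 2.07 and 2.01, while Lss and Scap fall below it in both panels.

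The compounds were compared with each other as 1 pair, at the same labelled dose and schedule and with no test, since each has 1 library. Insig1 had a ratio of 20(OH)D3 to 25(OH)D3 of 1.03 (0.918 to 1.15). Srebf2 had 0.996 (0.926 to 1.07), Scap 0.991 (0.874 to 1.12) and Insig2 0.989 (0.812 to 1.2). By counts, no difference between the compounds was detectable in these control genes at this depth, although an interval that holds 1 does not show that the compounds act alike. By FPKM, Scap had a ratio of 0.783, so for this gene the scales differ. Of the 27 genes 10 had a count ratio above 1, against 47.7% of all loci, and the median log2 ratio was -0.02, as over all loci. By FPKM, 7 genes lay on the other side of 1 from their counts: Mvk, Idi1, Lss, Msmo1, Nsdhl, Hsd17b7 and Soat1. Hsd17b7 had 0.793 by counts and 1.38 by FPKM, and Lss 0.928 and 1.23, so their direction depends on the scale.

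Some enzymes and transport genes stood apart between the compounds by counts, at no larger a share than over all loci. Sc5d was higher with 20(OH)D3, at 1.46 (1.22 to 1.75). Idi1 was the 1 gene at least 1.5-fold apart, against 17.6% of all loci, with 11.6% of loci higher and 6.04% lower. Its count ratio was 1.61 (1.03 to 2.54), while its FPKM ratio was 0.999, so the FPKM showed no difference. Lower with 20(OH)D3 were Soat1, at 0.770 (0.686 to 0.863), Npc1, at 0.833 (0.741 to 0.936), and Fdps, at 0.823 (0.729 to 0.929). Lbr, at 0.859 (0.783 to 0.943), and Tm7sf2, at 0.884 (0.794 to 0.984), were also lower. For Soat1 the FPKM ratio was 1.03, so its difference was in counts alone. In all, 2 genes had intervals above 1, against 18.6% of all loci, and 5 below it, against 21.0%.

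**Figure D4:**
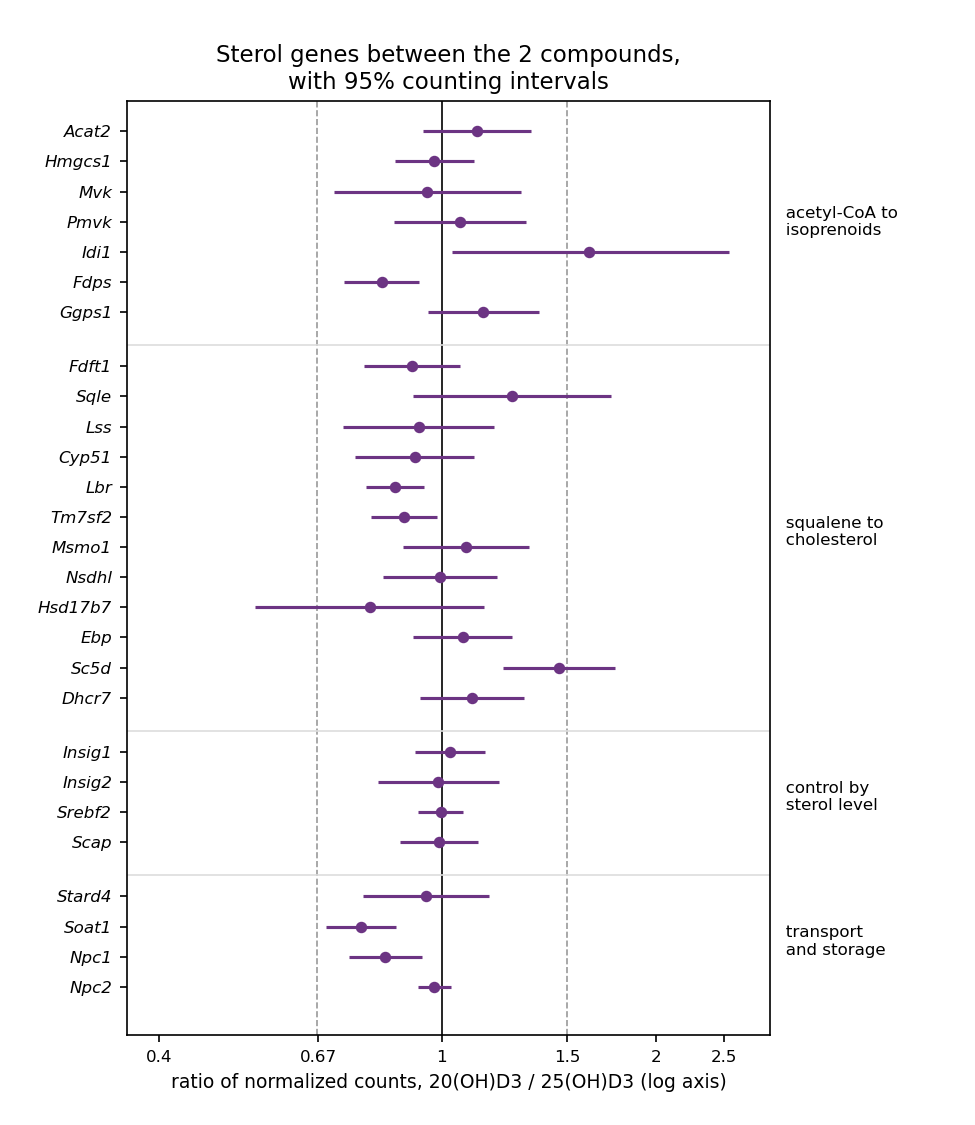
Ratio of normalized counts of 20(OH)D3 to 25(OH)D3 for each sterol gene on a log axis, with 95% counting intervals as bars and dashed lines at 1.5-fold. The genes of sterol control lie near 1, with Insig1 at 1.03, while Sc5d and Idi1 lie to the right and Soat1 and Npc1 to the left.

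Markers of fat, which a dissected node can carry, differed between the same libraries. Of 12 adipocyte markers, 12 were above vehicle with 20(OH)D3 and 11 with 25(OH)D3, against 47.5% and 52.1% of all loci. No adipocyte marker was at 0 in every library. The summed level of the 12 markers was 9032 FPKM with 20(OH)D3, 3906 FPKM with 25(OH)D3 and 2013 FPKM with vehicle. The adipocyte regulator Pparg had count ratios of 4.89 (3.93 to 6.15) with 20(OH)D3 and 3.03 (2.4 to 3.86) with 25(OH)D3. Between the compounds 12 of 12 adipocyte markers were at least 1.5-fold higher with 20(OH)D3, against 11.6% of all loci. In the same comparison Insig1 had 1.03 (0.918 to 1.15). Brown fat markers summed to 554 FPKM with 20(OH)D3, 554 FPKM with 25(OH)D3 and 118 FPKM with vehicle. Of the 5 brown fat markers past the filter, 5 were above vehicle with each compound. Between the compounds, the heat-producing carrier Ucp1 had a ratio of 0.993 (0.880 to 1.12). At least 1.5-fold lower with 20(OH)D3 than with 25(OH)D3 were 2 of the 5, against 6.04% of all loci. These were Cidea, at 0.619 (0.560 to 0.683), and Elovl3, at 0.348 (0.144 to 0.761). Elovl3 rested on 9 reads with 20(OH)D3 and 27 with 25(OH)D3. None of the 5 was 1.5-fold higher. The part of either kind of fat in the Insig1 ratios was not tested.

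Lymphocyte and other markers differed as well. Of all loci, 47.5% were above vehicle with 20(OH)D3 and 52.1% with 25(OH)D3. T cell markers were below vehicle in 8 of 10 genes with 20(OH)D3 (median log2 ratio -0.40) and in 2 of 10 with 25(OH)D3 (0.11), and B cell markers in 7 of 8 (-0.24) and 4 of 8 (0.03) with the same compounds. These stand beside the lower counts of Soat1, Npc1 and Lbr with 20(OH)D3, although by FPKM Soat1 was lower with 25(OH)D3 as well. Proliferation markers were below vehicle in 7 of 8 genes with 20(OH)D3 and in 7 of 8 with 25(OH)D3, at medians of -0.35 and -0.30, beside the lower Srebf2 and Scap. Macrophage markers had medians of 0.73 with 20(OH)D3 and 0.05 with 25(OH)D3, plasma cell markers 0.32 and -0.19, and mast cell markers 0.00 and -0.73. Hepatocyte markers, from a tissue of high sterol synthesis, summed to 2.65 FPKM with 20(OH)D3, 0.957 FPKM with 25(OH)D3 and 1.07 FPKM with vehicle, with Apoa1 and Ttr at 0 reads in every library. Skin markers summed to 4.21 FPKM with 20(OH)D3, 4.18 FPKM with 25(OH)D3 and 1.42 FPKM with vehicle, with Krt5 at 0 reads. The part of cell composition in the sterol gene ratios was not tested.

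**Figure D5:**
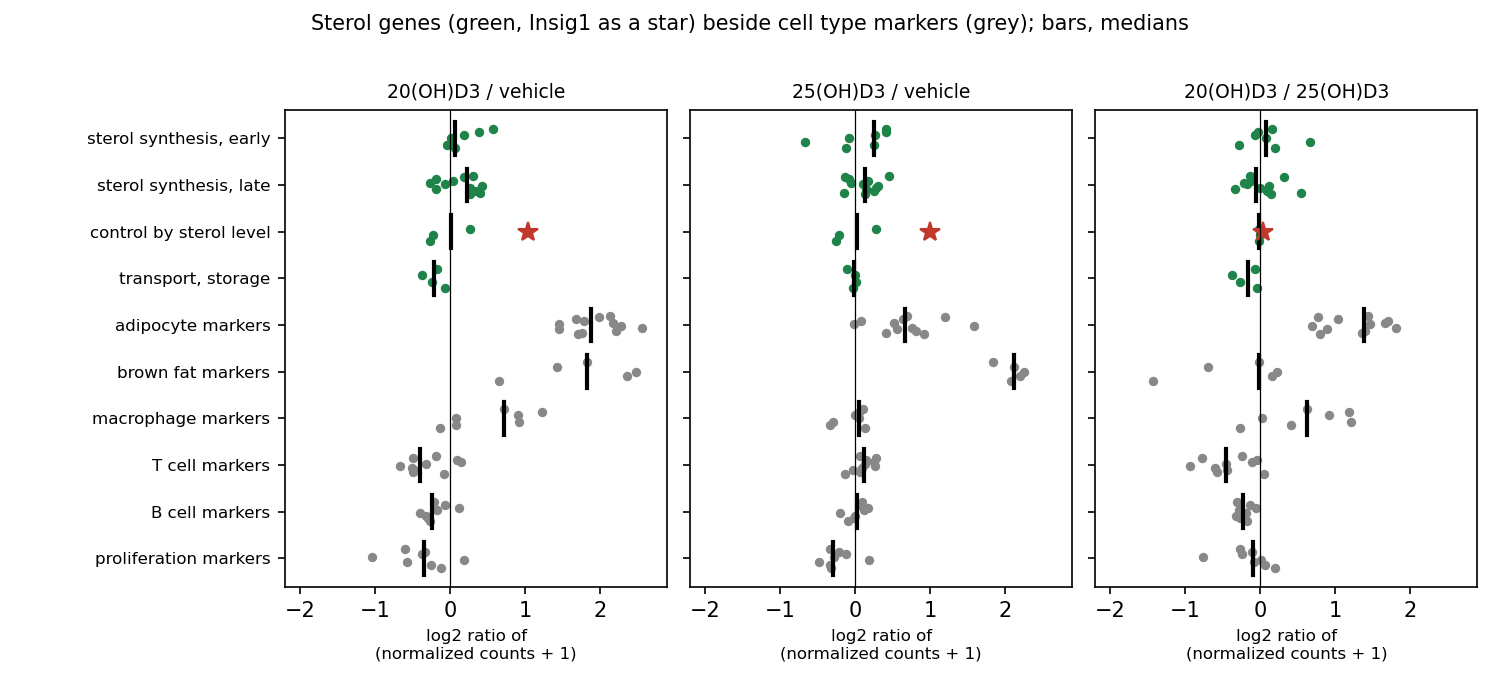
Log2 ratio of (normalized counts + 1) for the sterol genes by step (green, Insig1 as a red star) and for cell type markers (grey), 1 point per gene with the median as a black bar, in each of the 3 comparisons. Adipocyte markers have medians of 1.89 with 20(OH)D3 and 0.67 with 25(OH)D3 against vehicle, and the medians of the sterol groups lie between -0.21 and 0.25 in the 3 comparisons.

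Genes around the pathway were read from lists given by name. Of 11 genes for SREBP cleavage and sterol-controlled degradation, 4 were above vehicle with 20(OH)D3 and 3 with 25(OH)D3, and 0 were 1.5-fold apart with either. Over all loci, 47.5% were above vehicle with 20(OH)D3 and 52.1% with 25(OH)D3. The shares at least 1.5-fold apart were 18.4% and 11.4%. Erlin1, which restrains SREBP activation, had 0.748 (0.626 to 0.893) with 20(OH)D3 and 0.829 (0.699 to 0.983) with 25(OH)D3. Mbtps2, the second of the proteases that release SREBP, had 1.05 (0.890 to 1.24) with 20(OH)D3 and 0.811 (0.679 to 0.967) with 25(OH)D3. Ubxn8 was the highest of this list, at 1.16 (0.930 to 1.45) with 20(OH)D3 and 1.36 (1.10 to 1.68) with 25(OH)D3. Of 12 genes that use isoprenoids, 7 were above vehicle with 20(OH)D3 and 8 with 25(OH)D3, and 0 were 1.5-fold apart, beside those same shares. Coq2, which builds ubiquinone, was the highest of them, at 1.41 (1.2 to 1.66) with 20(OH)D3 and 1.39 (1.18 to 1.63) with 25(OH)D3. The lowest were Pdss1 with 20(OH)D3, at 0.724 (0.506 to 1.03), and Icmt with 25(OH)D3, at 0.812 (0.708 to 0.932).

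Of 13 further genes of sterol uptake and traffic past the filter, 7 were above vehicle with 20(OH)D3 and 6 with 25(OH)D3. The shares over all loci were 47.5% and 52.1%. The lipoprotein receptor gene Lrp1 had 2.13 (1.93 to 2.34) with 20(OH)D3 and 0.935 (0.834 to 1.05) with 25(OH)D3, and Vldlr, another such receptor, 1.93 (1.52 to 2.48) with 20(OH)D3 and 1.51 (1.17 to 1.96) with 25(OH)D3. With 25(OH)D3 their FPKM ratios were 1.32 for Lrp1, on the other side of 1 from its counts, and 1.21 for Vldlr. Gramd1a, which moves cholesterol from the plasma membrane, had 0.727 (0.691 to 0.765) with 20(OH)D3 and 1.12 (1.07 to 1.17) with 25(OH)D3. Lcat rested on 9 reads with 20(OH)D3, 20 with 25(OH)D3 and 10 with vehicle.

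Among 7 oxysterol genes past the filter, 2 were above vehicle with 20(OH)D3 and 4 with 25(OH)D3, against 47.5% and 52.1% of all loci. Ch25h makes an oxysterol that binds INSIG proteins and suppresses SREBP2. Ch25h had 45 reads with 20(OH)D3, 60 with 25(OH)D3 and 80 with vehicle, at ratios of 0.629 (0.427 to 0.918) with 20(OH)D3 and 0.805 (0.566 to 1.14) with 25(OH)D3. Nr1h3, which encodes an oxysterol receptor, had 1.52 (1.32 to 1.76) with 20(OH)D3 and 1.31 (1.13 to 1.52) with 25(OH)D3. Cyp11a1, whose enzyme can form 20(OH)D3 from vitamin D3, had 8 reads with 20(OH)D3, 9 with 25(OH)D3 and 6 with vehicle and did not pass the filter. Of 4 oxysterol receptor targets, 4 were above vehicle with 20(OH)D3, against 47.5% of all loci, and 1 with 25(OH)D3, against 52.1%. With 20(OH)D3, 2 of the 4 had an interval above 1, against 20.2% of all loci. With 25(OH)D3 all 4 intervals held 1, where 14.6% of all loci had an interval above 1 and 12.2% below.

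The related factor SREBP1 drives fatty acid synthesis. Srebf1 had count ratios of 1.46 (1.35 to 1.57) with 20(OH)D3 and 1.01 (0.928 to 1.10) with 25(OH)D3, beside FPKM ratios of 1.17 with 20(OH)D3 and 1.07 with 25(OH)D3. Of 13 genes of this list, 1 was at least 1.5-fold higher and 0 lower with 20(OH)D3, against 12.9% and 5.47% of all loci, and 6 were higher and 2 lower with 25(OH)D3, against 6.34% and 5.07%. The 2 lower genes with 25(OH)D3 were Gpam, at 0.531 (0.414 to 0.678), and Fads2, at 0.646 (0.455 to 0.910). Mlxipl, which encodes the glucose-responsive factor ChREBP, had 2.43 (1.93 to 3.06) with 20(OH)D3 and 2.68 (2.15 to 3.36) with 25(OH)D3, beside FPKM ratios of 1.48 with 20(OH)D3 and 1.94 with 25(OH)D3. Elovl6, which lengthens fatty acids, had 0.687 (0.589 to 0.799) with 20(OH)D3 and 1.88 (1.67 to 2.11) with 25(OH)D3, and Me1, which supplies NADPH, 0.985 (0.903 to 1.08) with 20(OH)D3 and 1.77 (1.64 to 1.91) with 25(OH)D3. Elovl6 thus lay on opposite sides of vehicle with the compounds, at a ratio of 0.366 (0.318 to 0.420) between them.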

How the data were processed

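RNA-seq values of 3 libraries came from 1 deposited gene table. The tools named in the submitters' processing notes are Cufflinks 2.2.1, STAR 2.7.0c, Cuffnorm and Cuffdiff, with no role or settings for any of them. FPKM were computed by the authors. The authors' deposited normalized count signal held whole reads scaled by 1 factor per library: 1.05 for 20(OH)D3, 1.01 for 25(OH)D3 and 0.938 for vehicle. Dividing by the factor left 99.9% of values whole to within 0.02. Because the 25(OH)D3 factor is so near 1, its reads are less certain.

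The 27 genes were matched by symbol. The members and lists were chosen with earlier results of these data known. All members could be named, and of each list the highest and lowest gene, those 1.5-fold apart, Srebf1, Ch25h and Cyp11a1. Other named genes (Acat3, markers at 0) were chosen after their values were seen. Log2 ratios had 1 added to normalized counts. Shares of all loci used those with a mean FPKM of 1 or more. The scripts were checked on simulated counts. Strand use in counting is not stated, and exons of Hmgcs1, Idi1, Ggps1, Fdft1, Lss, Cyp51, Lbr, Scap and Npc1 overlap genes on the opposite strand in GENCODE M21, the source of GRCm38 positions. Of the table's lines, 2 were empty. Female mice are not analysed here, and some other genes of the pathway are not reported here. Python 3.11.15, scipy 1.17.1 and pandas 2.3.3 were used.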

Additional observations from a re-analysis of the deposited data

How the results depend on the processing

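Under the scalings run, Insig1 stayed above vehicle, at log2 ratios of 0.83 to 1.04 with 20(OH)D3 and 0.82 to 1.01 with 25(OH)D3. TPM moved the median of all loci from -0.02 to -0.18 for 20(OH)D3 against vehicle and from 0.01 to -0.12 for 25(OH)D3 against vehicle. The median of the set in TPM became -0.09 with 20(OH)D3 and -0.062 with 25(OH)D3, and 13 and 12 genes were then above vehicle in place of 16. All loci above vehicle in TPM were 32.4% with 20(OH)D3 and 32.2% with 25(OH)D3. Idi1 changed side with FPKM in place of counts, to 0.064 for 25(OH)D3 against vehicle and -0.0015 between the compounds, and in TPM to -0.029 between the compounds. The cause was not tested.

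The number of genes at least 1.5-fold apart was small and moved with the setting. For 20(OH)D3 against vehicle it was 1, but 3 with FPKM + 1 or in TPM and 4 with FPKM + 0.1. Of all loci, 11.1% were 1.5-fold higher and 4.05% lower with FPKM + 1. The shares were 8.38% and 10.6% in TPM, and 13.8% and 6.21% with FPKM + 0.1. For 25(OH)D3 against vehicle the number of genes was 2, but 4 with FPKM + 0.1, where 7.08% of all loci were higher and 5.3% lower. It was 1 with a pseudocount of 10, a mean of at least 5 FPKM, 100 reads in every library or a 2-fold threshold. Loci higher and lower were then 3.04% and 2.05% with the pseudocount, and 3.47% and 1.42% with the FPKM minimum. With 100 reads they were 1.95% and 0.375%, and 2.34% of loci were at least 2-fold higher. Between the compounds the number of genes was 1, but 0 with FPKM + 1, in TPM and under those same 4 settings. Of all loci, 9.43% were higher and 5.15% lower with FPKM + 1, and 9.59% and 6.61% in TPM. With the pseudocount they were 7.83% and 3.18%, with the FPKM minimum 7.12% and 2.71%, and with 100 reads 4.72% and 1.55%. The minimum of 100 reads, leaving out loci with more than 1 symbol, and the TPM and median-of-ratios values of single genes were chosen after seeing the data. Depth limits Idi1, Hsd17b7, Sqle and Mvk, with under 100 reads in every library. No paired analysis was possible because each group has 1 library.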
